A study of Mus musculus with 8 samples.

Results

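The Reg genes of the mouse encode small secreted C-type lectins, and 5 of them were followed here in intestinal organoids: Reg1, Reg3a, Reg3b, Reg3g and Reg4. They were 5 of the 54532 genes in the count table, matched by Ensembl identifier, and all 5 had enough counts to enter the fit of 9971 genes. The set was put together because Reg3g rose strongly with RANKL in these same libraries. The levels and changes of the 5 genes with RANKL are therefore given as a description, with intervals and without p-values.

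Reg3 proteins are released at the apical surface of the gut epithelium, mainly by enterocytes and Paneth cells, and keep bacteria away from the mucosa. Reg3g and Reg3b are known to be induced by bacterial colonisation and by the cytokine IL-22, which signals through STAT3. Reg4 marks enteroendocrine and deep crypt secretory cells, and Reg1 is the founding member of the family, first described in the regenerating pancreas.

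Gene expression was measured by 3′ mRNA sequencing in 8 libraries of mouse intestinal organoids, which are self-renewing cultures of the gut epithelium. The 4 control libraries came from organoids without added RANKL, and the 4 RANKL libraries from organoids given RANKL, the ligand of the receptor RANK and an activator of NF-κB. The mouse lines of the study had a C57BL/6J background, per its methods. How much RANKL was used and for how long, and the genotype of the mice that gave the crypts, are not given for these libraries in the sources used here. The labels do not say whether the replicates came from separate cultures or animals, so the intervals and p-values measure the spread between these libraries, which may be technical.

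Total counts per library ran from 583663 to 7807298, and the control libraries together held 2.81 times the counts of the RANKL libraries. Control replicate 4 and RANKL replicate 1 were the shallowest of their groups. Levels are given as CPM, counts scaled to a library of 1000000 counts after TMM scaling, and since each transcript gives a read near its 3′ end, CPM was compared between genes without a correction for length. In the fit of all genes by edgeR's quasi-likelihood test, 2587 genes passed a Benjamini-Hochberg adjusted p of 0.05, which was 25.9% of those tested, with 1355 higher and 1232 lower with RANKL. The number lower was 814 without RANKL replicate 4 and 808 with the library total as a covariate.

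Of the 5 genes, 4 lie with the related genes Reg2 and Reg3d in a cluster of 98216 bp on chromosome 6, and Reg4 lies on chromosome 3. On GRCm38, with GENCODE annotation, Reg3b spans chr6:78370657-78373466 on the plus strand, Reg3a chr6:78380709-78383827 on the plus strand, Reg1 chr6:78422711-78428667 on the plus strand and Reg3g chr6:78466269-78468872 on the minus strand. Reg4 spans chr3:98222156-98236748 on the plus strand. No exon of these genes overlaps an exon of another gene. The promoters of the 3 Reg3 genes among the 5 are shown. These genes lie in the same cluster, and 1 of the 3 moved with RANKL. Each run goes from 250 bases before to 50 bases after the RefSeq start on GRCm38.p6, read 5′ to 3′ on the gene's own strand, with matches to the searched motifs in capitals.
Reg3g, chr6:78468825-78469124, minus strand: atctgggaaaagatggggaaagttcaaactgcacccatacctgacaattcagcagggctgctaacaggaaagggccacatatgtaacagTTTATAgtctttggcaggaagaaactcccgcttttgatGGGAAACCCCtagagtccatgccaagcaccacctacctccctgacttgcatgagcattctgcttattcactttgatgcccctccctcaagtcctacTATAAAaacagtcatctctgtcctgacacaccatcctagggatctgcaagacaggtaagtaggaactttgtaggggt
Reg3b, chr6:78370635-78370934, plus strand: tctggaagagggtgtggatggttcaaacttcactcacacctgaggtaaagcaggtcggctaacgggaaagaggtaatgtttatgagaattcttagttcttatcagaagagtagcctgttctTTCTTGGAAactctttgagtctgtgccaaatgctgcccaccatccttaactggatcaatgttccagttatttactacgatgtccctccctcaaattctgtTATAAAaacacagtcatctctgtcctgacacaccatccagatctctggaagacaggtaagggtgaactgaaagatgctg
Reg3a, chr6:78380459-78380758, plus strand: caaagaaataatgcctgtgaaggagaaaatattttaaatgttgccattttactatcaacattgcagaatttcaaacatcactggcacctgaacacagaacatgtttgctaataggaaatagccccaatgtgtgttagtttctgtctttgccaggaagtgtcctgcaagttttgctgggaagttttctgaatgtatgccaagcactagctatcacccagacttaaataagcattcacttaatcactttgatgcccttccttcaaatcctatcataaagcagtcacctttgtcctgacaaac
In the Reg3g promoter the capitals mark 1 match to the NF-κB consensus at 123 bases before the start, GGGAAACCCC, which reads as a match on both strands, and the TATA box letters TATAAA at 27 bases before the start and, on the other strand, at 161 bases before it. In the Reg3b promoter they mark a STAT match, TTCTTGGAA, at 129 bases before the start and TATAAA at 29 bases before it. The Reg3a promoter held no match to any searched motif.

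The same 5 motifs were looked for on both strands in 32851 promoters of 300 bases from 27025 genes. The NF-κB consensus was found in 8.46% of them, the STAT letters TTCNNNGAA in 8.3%, the AP-1 letters TGANTCA in 7.81%, TATAAA in 13.6% and the Spi-B and PU.1 letters GAGGAAGT in 3.2%. Among the 5 genes, Reg3g alone held the NF-κB letters, Reg3b alone the STAT letters, and Reg1 alone the AP-1 letters, as TGAGTCA at 117 bases before its start. The Reg4 promoter held none of the 5 motifs, and no promoter of the 5 genes held GAGGAAGT. No 2 motifs overlapped in these promoters. The RefSeq starts of Reg1 and Reg3b lie inside the GENCODE spans of these genes given above. The AP-1 match of Reg1 and the STAT match of Reg3b lie inside those spans too. A match describes letters in this window and not a bound site, and a missing match says nothing of the factor.

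The genes are similar in sequence, so the possibility that reads of 1 gene were counted on another was looked at. Longest coding transcripts of Reg3g and Reg3b shared 77.4% of the 729 bases that aligned, and those of Reg3g and Reg3a 76.3% of 733 bases. Across all words of 50 bases, the read length of the run, the transcripts of the 5 genes had no word in common with each other or with Reg2 or Reg3d. Reg1 shared 32 of its 876 words with transcripts outside the family, and the other 4 genes shared 0. Reads trimmed to shorter lengths were not covered by this count.

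Reg3g, a lectin that kills Gram-positive bacteria by binding their peptidoglycan, was the gene that moved. Its level was 97.0, 85.1, 77.8 and 84.3 CPM in control replicates 1 to 4, and 993, 1018, 1033 and 1016 CPM in RANKL replicates 1 to 4. Each RANKL library was far above each control library, and the lowest RANKL level was 10.2 times the highest control level. The mean went from 86.0 ± 8.01 to 1015 ± 16.4 CPM (SD, n = 4 each). Its log2 fold change was 3.55 (SE 0.11, 95% interval 3.33 to 3.76), or 11.7-fold. Behind these values stand 1435 control and 5923 RANKL counts, of which control replicate 4 gave 49.

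Reg3b, the close relative of Reg3g that acts on Gram-negative bacteria, stayed within its control range. It stood at 80.8, 61.5, 53.0 and 96.3 CPM in the control libraries and at 77.5, 70.9, 60.0 and 91.2 CPM in the RANKL libraries. The RANKL values all lay between the lowest and the highest control value. The means were 72.9 ± 19.5 and 74.9 ± 13.0 CPM (SD, n = 4 each), and the log2 fold change was 0.10 (SE 0.16, 95% interval -0.21 to 0.42).

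Reg3a, the third Reg3 gene with counts in every library, was above Reg3b in every library, with a ratio of counts from 3.5 to 5.83. Its levels were 321, 325, 268 and 337 CPM in the control and 379, 276, 349 and 349 CPM in the RANKL libraries, and the groups overlapped. The log2 fold change was 0.11 (SE 0.11, 95% interval -0.10 to 0.33).

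Reg1, a secreted lectin linked to regeneration, stood at 452, 380.5, 441 and 353 CPM in the control and at 375, 311, 350.5 and 401 CPM in the RANKL libraries. The groups overlapped, with means of 406 ± 47.6 and 359 ± 38.4 CPM (SD, n = 4 each). The log2 fold change was -0.19 (SE 0.10, 95% interval -0.40 to 0.02).

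Reg4, the most abundant of the 5 genes in the control libraries, was at 1047, 1128, 1307 and 1142 CPM there and at 1019, 1052, 1184 and 1006 CPM with RANKL. The highest library of each group was replicate 3, and the groups overlapped. The log2 fold change was -0.12 (SE 0.10, 95% interval -0.31 to 0.08).

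**Figure D1:**
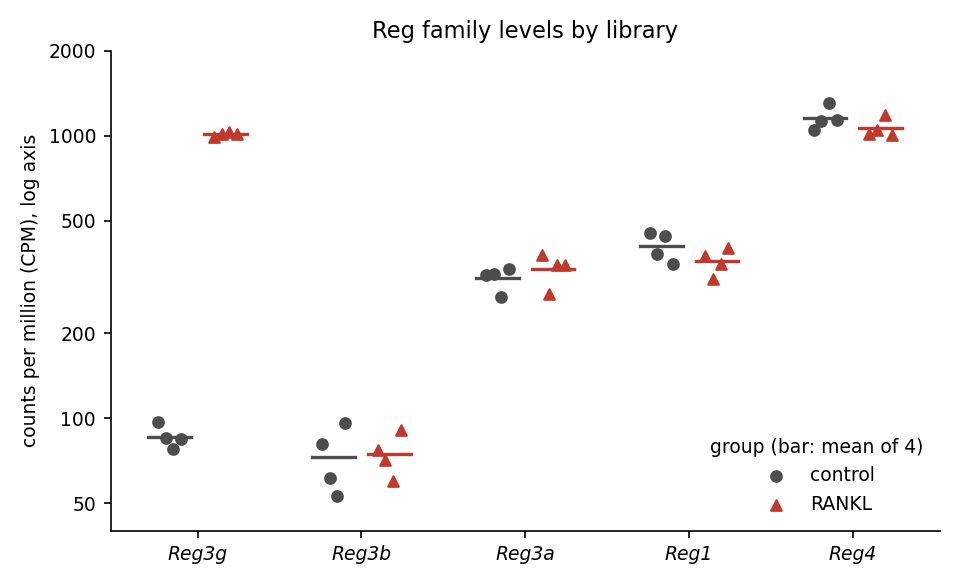
Levels of the 5 Reg genes in CPM on a log axis, 1 point per library (circles, control; triangles, RANKL), with a bar at the mean of the 4 libraries of a group. For Reg3g the RANKL libraries sit between 993 and 1033 CPM and the control libraries between 77.8 and 97.0 CPM, while the points of the other 4 genes overlap between the groups.

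Thus 1 of the 5 genes had groups that did not overlap, against 24.6% of all tested genes (13.1% with RANKL higher), and the same 1 gene passed the adjusted p of 0.05, against 25.9% of all tested genes (13.6% higher). Nothing is read from these counts, since the set was chosen on Reg3g. As ratios of RANKL over control, the 95% intervals ran from 0.863 to 1.34 for Reg3b, from 0.931 to 1.26 for Reg3a, from 0.755 to 1.01 for Reg1 and from 0.806 to 1.06 for Reg4. Reg3g ranked 46th of 9971 tested genes by log2 fold change, and 1 gene, Spib, had both a higher mean level and a higher fold change. Over 17 refits with another scaling, test, filter, covariate or set of libraries, the log2 fold change of Reg3g lay between 3.49 and 3.63.

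**Figure D2:**
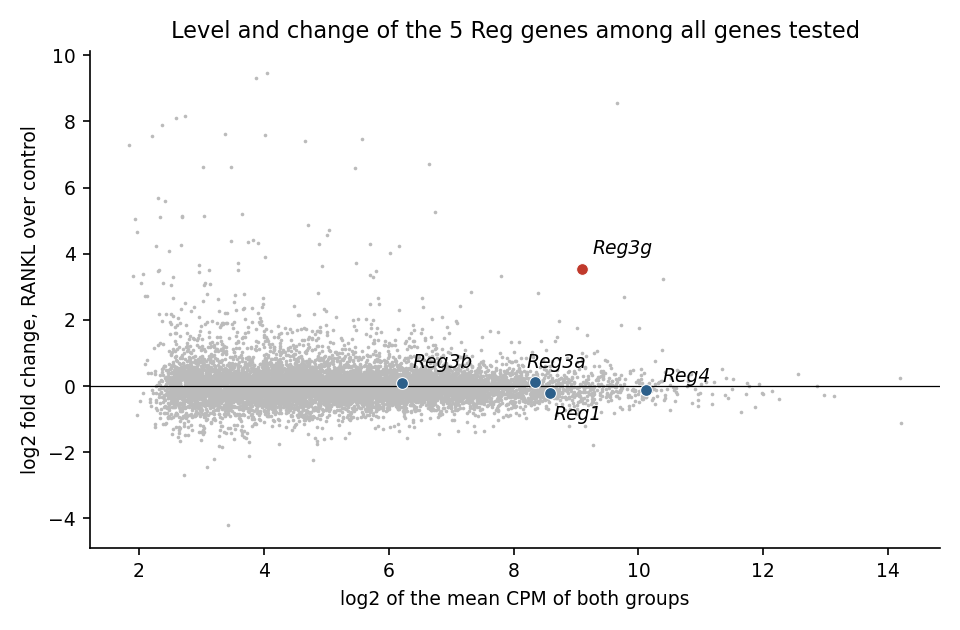
Log2 fold change of RANKL over control against the log2 of the mean CPM of both groups, 1 point per tested gene, with the 5 Reg genes in colour. Reg3g sits at 3.55, with 1 gene both above it and to its right, and the other 4 genes lie between -0.19 and 0.11.

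The remaining genes of the cluster had few counts. Reg2 had 0 counts in all 8 libraries, which allows up to 0.185 CPM over the control and 0.521 CPM over the RANKL libraries (3 counts in each group). Reg3d had 24 counts over the control and 10 over the RANKL libraries, a pooled ratio of 1.17 whose exact 95% interval for counting error ran from 0.50 to 2.54. Reg3g lies at the far end of the cluster, with its start on the opposite strand to Reg3b, Reg3a and Reg1. The map of the cluster shows the change at that end only, among the 4 genes with enough counts.

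**Figure D3:**
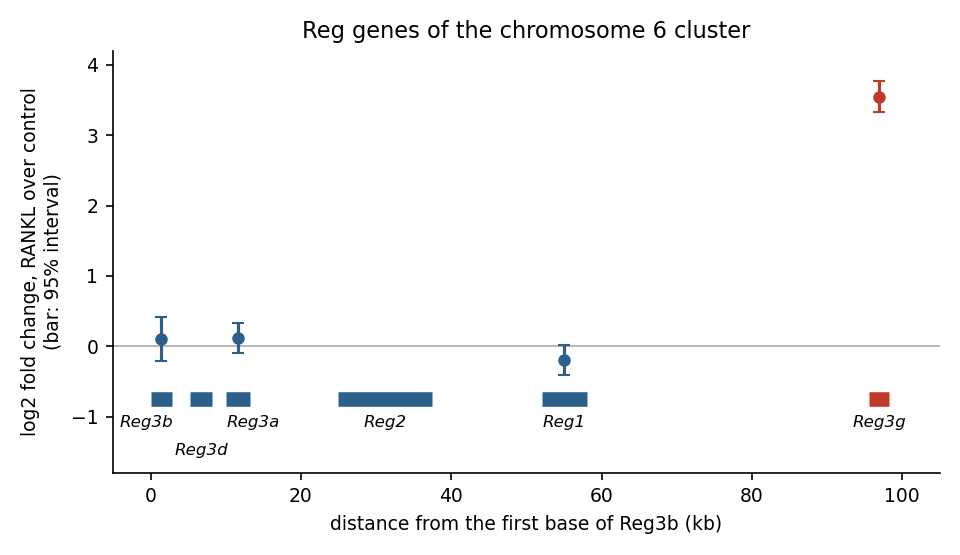
Log2 fold change of RANKL over control, with 95% intervals, by distance in kb along the chromosome 6 cluster from the first base of Reg3b; the bars under the zero line mark the extent of each gene on the distance axis only. Reg3g is at 3.55 and Reg3b, Reg3a and Reg1 have intervals that include 0, while Reg2 and Reg3d had too few counts for a value.

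The make-up of the family within each library does not depend on scaling between libraries. Reg3g made up 4.86% of the counts of the 5 genes in control replicate 1 (exact 95% binomial interval 4.53 to 5.21), 4.30% in replicate 2 (3.84 to 4.78), 3.62% in replicate 3 (3.24 to 4.04) and 4.19% in replicate 4 (3.11 to 5.50). In the RANKL libraries it made up 34.9% (32.7 to 37.2), 37.3% (35.8 to 38.8), 34.7% (33.5 to 35.9) and 35.5% (34.2 to 36.8). These intervals cover counting error only and leave out the spread between libraries. PCR copies counted as reads can make them too narrow. The highest control share was 4.86% and the lowest RANKL share 34.7%.

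The 5 genes together held 0.198% to 0.206% of all counts in the control libraries and 0.276% to 0.297% in the RANKL libraries. Without Reg3g, their summed level was 1895 to 2069 CPM in the control and 1710 to 1944 CPM in the RANKL libraries, and these ranges overlapped. The ratio of Reg3g to Reg3b counts was between 0.875 and 1.47 in the control libraries and between 11.1 and 17.2 in the RANKL libraries. The ratio of Reg3g to Reg4 counts went from 0.0595 to 0.0927 in the control to 0.872 to 1.01 in the RANKL libraries. By contrast, the ratio of Reg1 to Reg4 counts had overlapping ranges of 0.309 to 0.431 and 0.296 to 0.399.

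**Figure D4:**
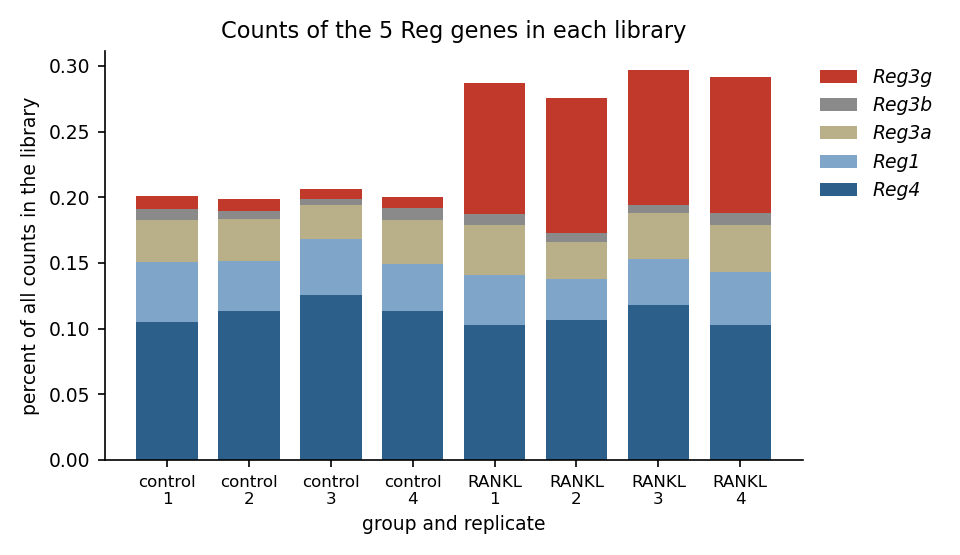
Counts of the 5 Reg genes as a percentage of all counts in each library, stacked by gene, for control replicates 1 to 4 and RANKL replicates 1 to 4. The stack reaches 0.198% to 0.206% in the control and 0.276% to 0.297% in the RANKL libraries, and the red Reg3g segment is the one that differs.

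The order of the levels changed accordingly. In control replicates 1 to 3 it was Reg4, Reg1, Reg3a, Reg3g and Reg3b from high to low, and in control replicate 4 Reg3b stood above Reg3g. The control ranges of Reg3g and Reg3b overlapped, so these neighbours did not differ beyond their spread, whereas the control ranges of Reg4, Reg1 and Reg3a did not overlap with each other. With RANKL, Reg4 and Reg3g were the highest of the 5 genes in every library, with Reg3g above Reg4 in replicate 4 alone and overlapping ranges. Reg1 and Reg3a followed, with overlapping ranges and changing places in replicate 1, and Reg3b was lowest in every RANKL library. By mean level among the 9971 tested genes, Reg3g went from rank 2442 to rank 94, and Reg4 from rank 79 to rank 86.

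The libraries of a condition were close to each other for Reg3g. Its coefficient of variation (SD as a percentage of the mean) was 9.31% in the control libraries, against 8.39% for counting alone, and 1.62% in the RANKL libraries, against 2.89% for counting alone. It was also read for genes whose mean level over both groups was within 1.5-fold of that of Reg3g. Among these 328 genes the median was 10.1% in the control libraries and 7.17% with RANKL. For Reg3g that mean lies between its control and RANKL levels, so the genes were not matched to its level within a group. Reg3b varied most, at 26.7% in the control libraries against 8.45% for counting, with its highest level in the shallow control replicate 4. Reg1, Reg3a and Reg4 varied by 7.66% to 13.0% within a condition.

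The genes whose pattern was most like that of Reg3g were found by Pearson's r of log2 CPM over the 8 libraries, among 6647 genes with a mean of at least 20 CPM. They were H2-M2, a non-classical MHC class I gene (r = 0.999), Spib, the ETS factor of M cells (0.998), Inf2, a formin (0.998), C3, the central complement component (0.998), and Cyba, a subunit of the NADPH oxidase (0.998). The 8 libraries fall into 2 clusters by condition, so these values mostly restate that each gene rose. After the mean of each condition was removed, r was 0.72 for H2-M2, 0.59 for Spib, 0.26 for Inf2, 0.77 for C3 and -0.27 for Cyba. H2-M2 and C3 had control means of 0.32 and 1.58 CPM, so their control deviations rest on few counts. These genes were picked for following Reg3g, so a difference between the groups was fixed in advance and no test is given here. Their log2 fold changes ran from 2.65 for Inf2 to 8.56 for Spib.

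Among the genes whose pattern was most like that of Reg4 were Yipf1 (r = 0.959), Zmynd11 (0.947), Baz2a (0.947) and Hist1h1c, a linker histone (0.944), and for these r was 0.947 to 0.959 after the condition means were removed. These genes, like Reg4, were highest in replicate 3 of both groups. None of these 4 passed the edgeR threshold, with adjusted p from 0.0542 to 0.65. In some refits Yipf1, Baz2a and Hist1h1c did pass. Without control replicate 1 their log2 fold changes were -0.33, -0.39 and -0.62.

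The proposed receptor of Reg proteins, the exostosin-like gene Extl3, was present at 29.3 ± 2.44 CPM in the control and 33.1 ± 6.18 CPM in the RANKL libraries (SD, n = 4 each). Its log2 fold change was 0.22 (95% interval -0.13 to 0.56, edgeR adjusted p = 0.376), and the groups overlapped.

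Among 13 tested genes for other secreted antimicrobial proteins, 2 rose, 3 fell and 8 did not pass the test, with a median log2 fold change of 0.16 against 0.00017 over all tested genes. Pglyrp1, a secreted peptidoglycan-binding protein, rose from 103 ± 19.2 to 326 ± 30.0 CPM (log2 fold change 1.65, SE 0.12, edgeR adjusted p = 2.87e-12). Pglyrp2, a peptidoglycan amidase named after its values were seen, had 0 control and 49 RANKL counts, at least 46.0-fold higher against 3 counts over the control group. Dmbt1, a scavenger receptor that binds bacteria, fell by 0.49 on the log2 scale (adjusted p = 0.000156), and Pigr, the transporter of secretory IgA, by 0.36 (adjusted p = 0.00425). Lypd8, which holds flagellated bacteria off the colon wall, fell by 0.36 (adjusted p = 0.00833), a call that was lost without the shallowest library of each group. In this list 4 genes had 0 counts in every library.

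Among 14 tested genes for other carbohydrate-binding proteins, 2 rose, 3 fell and 9 did not pass, with a median of -0.17. Lgals8, a galectin that marks damaged vesicles, rose from 50.0 ± 5.07 to 93.4 ± 7.15 CPM (log2 fold change 0.87, adjusted p = 1.56e-06), and the C-type lectin-like gene Clec2h rose by 0.54 (adjusted p = 0.00145), a call that was lost with the library total as a covariate. Lgals2, another galectin, fell by 0.62 (adjusted p = 8.13e-06), and Lman1, a cargo receptor of the early secretory pathway, fell by 0.42 (adjusted p = 0.0024).

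The routes known to induce Reg3 genes were then read. Of 12 tested genes of the IL-22 and gp130 route to STAT3, 8 rose, 0 fell and 4 did not pass, with a median log2 fold change of 0.50, where 13.6% of all tested genes rose and the median was 0.00017. The count was 5 with the library total as a covariate. Socs1, a feedback inhibitor of JAK kinases, entered the fit through its RANKL libraries and rose from 1.41 ± 1.21 to 22.7 ± 5.92 CPM (log2 fold change 3.50, SE 0.33). Jak1, 1 of the 8, had overlapping groups (log2 fold change 0.32, edgeR adjusted p = 0.0497). Stat5a rose by 1.50 (adjusted p = 2.51e-05), Il6st, which encodes gp130, by 1.41 (adjusted p = 5.61e-06) and Il11ra1, a receptor chain for IL-11, by 0.96 (adjusted p = 1.96e-06). Stat3 itself, named after its values were seen, rose by 0.47 (SE 0.12, adjusted p = 0.00334). The IL-22 receptor chain Il22ra1, also named after its values were seen, had too few counts for the fit, with 21 over the control and 1 over the RANKL libraries. Socs3, Il6ra, Osmr and Lifr of this list were also too low for the fit. They had 62, 15, 2 and 3 counts over the control and 25, 7, 1 and 1 over the RANKL libraries. Jak1 and these genes were named after their values were seen. The part of this route in the change of Reg3g was not tested.

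Among 19 genes known as IL-22 responsive, only 4 had enough counts for the fit, of which 3 passed, against 25.9% of all tested genes. With no filter on low counts 8 genes of the list passed. With at least 10 counts in every library, where fewer genes were tested, 0 passed. C3, which entered the fit through its RANKL libraries, rose from 1.58 ± 0.90 to 199 ± 16.5 CPM (log2 fold change 6.72). Muc4, a membrane mucin, rose by 1.17 (adjusted p = 0.000343). Duox2, the dual oxidase that makes hydrogen peroxide at the apical surface, entered through its control libraries and fell by 2.10, and the fourth did not pass. The serum amyloid genes Saa1 and Saa2 had 0 counts in all 8 libraries, and Saa3, which had too few for the fit, had 4 counts over the control and 19 over the RANKL libraries. These 3 genes were named after their values were seen. Of 11 tested genes of the Toll-like, IL-1, IL-17 and NOD receptor route, 1 rose, 1 fell and 9 did not pass, with a median of 0.20, and 5 passed with no filter on low counts. Tlr3, the receptor for double-stranded RNA, rose by 1.18 (adjusted p = 7.71e-05). Il17rc, a chain of the IL-17 receptor, fell by 0.60 (adjusted p = 0.024), a call that was lost in 6 of 17 refits.

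**Figure D5:**
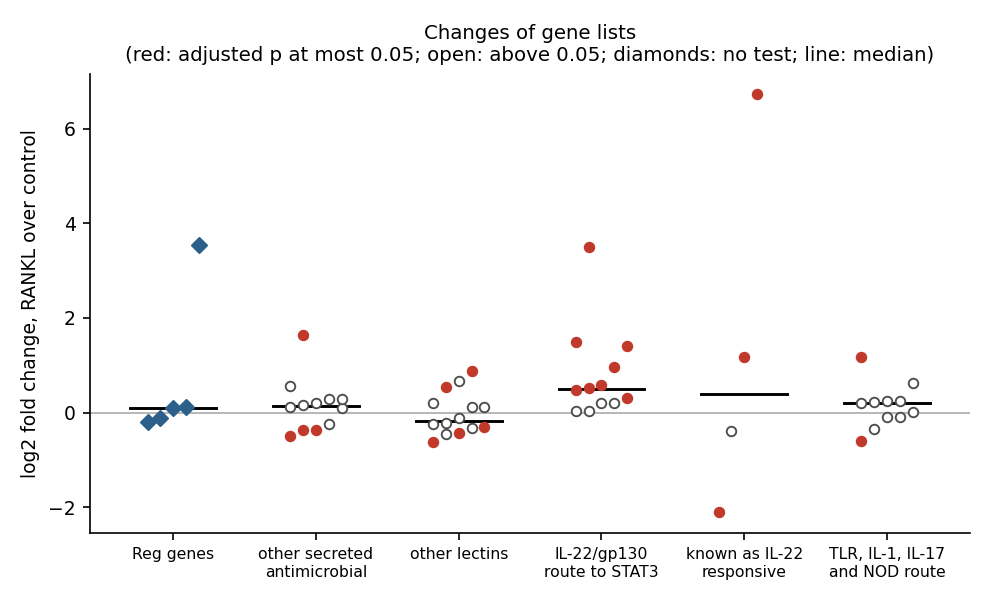
Log2 fold change of RANKL over control for each tested gene of 6 lists. Points are red where the edgeR adjusted p was at most 0.05 and open where it was above. Blue diamonds mark the 5 Reg genes, for which no test result is drawn, and lines mark list medians. Reg3g at 3.55 stands apart from the other 4 Reg genes, and Pglyrp2 is left out because its control counts were 0.

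Markers of the cells that carry Reg proteins were read beside these values. The summed level of 10 enterocyte markers was 4941 to 5211 CPM in the control and 4813 to 5381 CPM in the RANKL libraries, and 1 rose (Apoa1, log2 fold change 0.33, adjusted p = 0.0108) while 9 did not pass. Of 9 Paneth cell markers, 1 rose (Defa22), 1 fell (Defa17, by 0.70, adjusted p = 0.00026) and 7 did not pass, with sums of 5085 to 6413 and 5013 to 5989 CPM. Of 8 goblet cell markers, 1 fell (Spdef, by 0.57, adjusted p = 0.0315) and 7 did not pass, with sums of 2813 to 3473 and 3155 to 3429 CPM. Of 8 tested enteroendocrine markers 3 rose (Cck, Gip and Sct, by 0.38 to 0.46), with sums of 773 to 882 and 820.0 to 944 CPM. The calls of Apoa1, Defa22, Spdef, Cck, Gip and Sct were each lost in at least 2 refits. In whole organoids, more RNA per cell and more cells of a type cannot be told apart.

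The M cell markers moved with Reg3g. All 6 tested markers rose, their summed level went from 50.3 to 59.0 CPM in the control to 1834 to 2077 CPM in the RANKL libraries, and Spib alone went from 4.35 ± 1.42 to 1608 ± 124 CPM. Sox8, Tnfaip2 and Marcksl1 rose by 5.61, 4.72 and 3.71 on the log2 scale. Spib, Sox8 and Tnfaip2 had 68, 3 and 36 counts over the control libraries and entered the fit through their RANKL libraries. A gene this low in the control libraries could only enter by rising, and 1 marker passed with at least 10 counts in every library. Gp2, which defines mature M cells, had 0 counts in all 8 libraries. Of 5 crypt base stem cell markers, Lgr5, Axin2 and Smoc2 fell by 2.22, 0.90 and 0.76, Ascl2 rose by 1.10 and 1 did not pass, with sums of 1216 to 1629 and 1034 to 1235 CPM. The part of these cell types in the change of Reg3g was not tested.

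Of 10 stromal, endothelial and immune markers only Pdgfrb had enough counts for the fit, which it entered through its RANKL libraries. It had 51 counts over the control and 113 over the RANKL libraries, and rose by 2.53 on the log2 scale. The sum of the list was 5.35 to 24.1 CPM in the control and 22.0 to 27.1 CPM in the RANKL libraries, Cd3e had 0 counts and Ptprc, the pan-leukocyte marker, had 1 count in all. Of 6 tuft cell markers 1 was tested and did not pass, and the list summed to 5.16 to 16.1 and 12.5 to 19.4 CPM.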

How the data were processed

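The 8 libraries were made with the QuantSeq 3′ kit. The deposited values are raw counts per gene: the authors trimmed reads with BBDuk, removed abundant sequences with bowtie2, aligned to GRCm38 with STAR and counted strand-specifically on Ensembl release 94 with featureCounts. The counts are not normalized. Groups and replicate numbers came from the sample labels.

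Counts were fitted with edgeR 4.0.16 in R 4.3.3 (filterByExpr, TMM, quasi-likelihood test, Benjamini-Hochberg adjustment over 9971 genes, adjusted p of 0.05). In simulated counts with 200 changed genes among 9778 tested, the edgeR fit recovered 100 of 100 changed 2-fold and 100 of 100 changed 4-fold, with 12 false calls. The alternatives were DESeq2 1.42.0, limma-voom 3.58.1, other scalings and filters, a replicate block and leaving out each library, and 2 were chosen after seeing the data. Binomial intervals were exact (Clopper-Pearson). Genomic spans came from GENCODE M21 and promoters from RefSeq.

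The members and gene lists were chosen with earlier results of these data known. The text names all members and related Reg genes and, for each list, up to 4 genes past the threshold with the largest change at a mean of at least 5 CPM, plus genes past it against the list median. It also names genes among the 5 most like Reg3g and the 5 most like Reg4. A few items that these rules select are not reported here. Protein sequences were not used here.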

Additional observations from a re-analysis of the deposited data

Results flagged for a closer look

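Within each condition, the highest or lowest of the 4 libraries was compared with the nearest of the others for every named gene that was tested. In 6 of 96 groups of values the gap was larger than Dixon's 95% critical value for the share of the range, where chance gives about 4.8, or 1 in 20. None of the 6 belongs to Reg1, Reg3a, Reg3b, Reg3g or Reg4. Baz2a and Yipf1, which followed the pattern of Reg4, were high in RANKL replicate 3, at 163.2 CPM against 123.2 in the next library and at 329.1 CPM against 268.0. Cck was high in control replicate 2, at 84.26 CPM against 72.23, and Gip in control replicate 1, at 78.94 CPM against 73.24. Pdgfrb stood at 23.47 CPM in RANKL replicate 3 against 17.76 in the next, and Ascl2 was low in the shallow RANKL replicate 1, at 27.45 CPM against 39.92.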

How the results depend on the processing

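Over 17 alternatives the log2 fold changes ran from 3.49 to 3.63 for Reg3g, from -0.26 to -0.10 for Reg1, from 0.04 to 0.20 for Reg3a, from -0.03 to 0.23 for Reg3b and from -0.17 to -0.05 for Reg4. The genes were chosen on Reg3g in these libraries, so its range is no sign of stability. The number of all genes past the threshold was 2587. It was 1636 at an adjusted p of 0.01, and it ranged from 1853 to 2601 when 1 library was left out. The genes lower with RANKL, 1232 in all, were 814 to 1234 when 1 library was left out, with the lowest number without RANKL replicate 4, and 808 with the library total as a covariate, an alternative chosen after seeing the data. Of the list genes, 41 passed, and 24 with at least 10 counts in every library, where fewer genes were tested. Under that filter 5 genes passed in the IL-22 and gp130 route, 0 among the IL-22 responsive genes, 0 in the Toll-like and IL-17 route, 1 M cell and 2 stem cell markers. Without control replicate 3, 3 enterocyte markers passed in place of 1. Library totals differ 13.4-fold and the shallow libraries limit genes of low count. Same-numbered replicates were not paired by the labels, and their deviations correlated by -0.0072, -0.033, 0.10 and 0.035. With the replicate block 2610 genes passed, 1 Reg gene and 42 list genes.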
